A study of Mus musculus with 15 samples.

Results

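Tetraspanins are small membrane proteins that cross the membrane several times and gather partner proteins, among them integrins, immunoglobulin-superfamily proteins and the protease ADAM10, into patches of the cell surface. They are known for roles in adhesion, migration, membrane fusion and protein sorting, and white blood cells carry some that most other cells lack. In macrophages they have been studied in cell fusion, pathogen recognition and the handling of ADAM10. The genes described here are those whose symbol is Tspan followed by a number, together with Cd37, Cd53, Cd82 and Cd151. There were 24 such genes among the 34245 genes of the differentiation table, and the same 24 among the 25965 genes of the IL4 table. They were chosen by symbol and not by their values. Cd9, Cd63 and Cd81, which also encode tetraspanins, are outside this set and are given only for comparison.

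The study followed macrophages as they formed in culture from marrow of male C57BL/6 mice, 8 to 10 weeks old, under the macrophage growth factor CSF-1, with Ion Torrent sequencing of their RNA. Precursors were non-adherent cells that had spent 2 days with 0.6 ng/ml CSF-1 and 15% fetal calf serum. Immature macrophages had a further 4 days at 12 ng/ml CSF-1 in 10% serum. Mature macrophages had been in culture for 10 days, ending with 7 days at 120 ng/ml CSF-1. For the IL4 table, mature macrophages were kept for another 48 h at 120 ng/ml CSF-1 with 20 ng/ml IL4, a cytokine of type 2 immunity, or without it (unstimulated). No group carried a genetic change. There were 5 groups of 3 libraries, whose titles number the mice 1 to 3 within a group, and p-values measure only the spread between these libraries. CSF-1 dose, serum and days in culture changed together between precursors and immature macrophages, and CSF-1 dose and days between immature and mature macrophages, and cannot be told apart.

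Reads on genes numbered 7897769 to 22167294 in each of the 9 libraries of the stages and 2408531 to 4214266 in each of the 6 libraries with or without IL4. Of 11 macrophage markers 9 rose in immature macrophages over precursors and none fell. The precursors also held RNA of other marrow cells. Summed over 12 neutrophil markers, the level was 231 to 285 CPM in immature macrophages and 13779 to 20669.7 CPM in the precursor libraries, and all 12 fell. Of the 10 megakaryocyte and platelet markers 9 fell, with sums of 138 to 325 CPM in immature macrophages and 357 to 826 CPM in precursors. Of the 9 B cell markers tested 8 fell, and Cd79a was at 0 reads in every immature and mature library. All 6 progenitor markers fell too, with sums of 5.20 to 7.67 CPM in immature macrophages and 326 to 414 CPM in precursors. In such bulk samples fewer cells of a type and less RNA per cell cannot be told apart.

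Levels below are CPM (counts relative to the size of the library), with the totals scaled by TMM, a method that sets libraries to the same level over most genes. Changes are log2 fold changes with an approximate standard error. It was worked out as the absolute change divided by the square root of the test's F statistic. The words rose and fell are used where edgeR's quasi-likelihood test gave an adjusted p (Benjamini-Hochberg over all genes tested) under 0.05. The 3 stage comparisons share libraries with each other, so their results are not independent.

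The 24 genes, without Cd9, Cd63 and Cd81, together made up 0.0769 ± 0.00582% of reads in precursors (SD, n = 3 in each group). They made up 0.0942 ± 0.00984% in immature macrophages and 0.107 ± 0.0124% in mature macrophages. In the IL4 table they made up 0.161 ± 0.0173% of reads with IL4 and 0.146 ± 0.0178% without it. Of the 24 genes, 15 had enough reads to be tested across the stages and 12 with IL4. Those that passed this filter on reads include genes that did so only through the group where they were high, so the counts below are not shares of all 24.

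Between immature macrophages and precursors, 5 of the 15 tested tetraspanins rose, 5 fell and 5 did not pass. Over all 13359 genes tested, 49.2% passed, 22.5% as higher and 26.6% as lower. Here and in the comparisons that follow the members were few and were not tested as a set. Between mature and immature macrophages none rose, 2 fell and 13 did not pass, beside 14.9% of all genes passing, 7.52% as higher and 7.38% as lower. Mature macrophages set against precursors gave 6 higher, 5 lower and 4 not passing, beside 54.3% of all genes, 25.8% as higher and 28.5% as lower. With IL4, 4 of the 12 tested tetraspanins rose, 3 fell and 5 did not pass, beside 20.8% of the 8936 genes tested, 10.5% as higher and 10.3% as lower. Groups did not overlap for 13 of the 15 members between immature macrophages and precursors, beside 65.0% of all genes tested, and for 2 of 15 between mature and immature macrophages, beside 32.2%. They did not overlap for 13 of 15 between mature macrophages and precursors, beside 64.1%, and for 8 of 12 with IL4, beside 35.9%. Some members whose groups did not overlap did not pass the test. The members' median log2 fold changes were -0.28, 0.10, -0.18 and 0.40 in the order given, and those of all genes tested were -0.07, 0, -0.05 and 0.01.

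**Figure D1:**
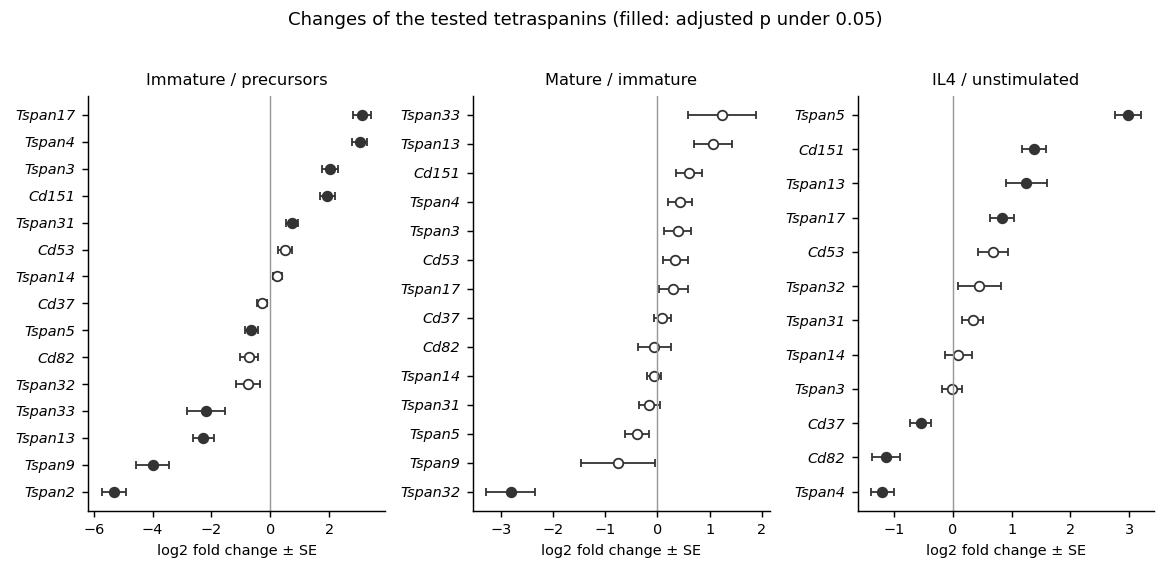
Log2 fold change with its standard error (x axis) of each tested tetraspanin (y axis), for immature macrophages over precursors, mature over immature macrophages and IL4 over unstimulated cells. Filled points passed at an adjusted p under 0.05 and open points did not. Tspan2 is left out of the middle panel because mature libraries held 0 reads of it. Tspan17 and Tspan4 lie at 3.11 and 3.04 in the first panel, Tspan32 at -2.81 in the second, and Tspan5 at 2.98 in the third.

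The first group holds the tetraspanins tied to adhesion and movement. Cd151 encodes a tetraspanin that binds laminin-receptor integrins (ENSMUSG00000025510, GRCm38 chromosome 7, 141467392 to 141471473, plus strand, as in the differentiation table). Its transcript had 12.5, 15.6 and 18.8 CPM in the precursor libraries, 58.8, 58.1 and 62.4 CPM in the immature ones and 104, 112 and 57.9 CPM in the mature ones. All immature and mature libraries lay above all precursor libraries, and mature library 3 lay among the immature ones. Cd151 rose in immature macrophages over precursors (log2 fold change 1.94 ± 0.26, adjusted p = 0.000164) and in mature macrophages over precursors (2.55 ± 0.26, adjusted p = 2.17e-05). Mature and immature macrophages did not pass (0.61 ± 0.25, adjusted p = 0.124), and without mature library 3 they did (0.85, adjusted p = 0.0125). With IL4 the Cd151 libraries had 291, 309 and 340.4 CPM, against 98.6, 107 and 154 CPM unstimulated. Cd151 thus rose again with IL4, with no overlap between groups (log2 fold change 1.38 ± 0.20, adjusted p = 0.000588).

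Tspan4 encodes a tetraspanin known from migrasomes, vesicles that migrating cells leave on their retraction fibres. Its gene (ENSMUSG00000025511, chromosome 7, 141475240 to 141493427, plus strand) starts 3767 bases after the end of Cd151, with 1 protein-coding gene in between. Tspan4 had 20.9, 25.7 and 16.2 CPM in the precursor libraries, 205, 164 and 150.0 CPM in immature macrophages and 302, 190.1 and 205 CPM in mature macrophages. The lowest immature library was far above the highest precursor library, whereas the immature and mature libraries overlapped. Tspan4 rose in immature macrophages over precursors (log2 fold change 3.04 ± 0.25, adjusted p = 8.32e-06) and in mature macrophages over precursors (3.47 ± 0.26, adjusted p = 2.79e-06), and mature and immature macrophages did not pass (0.43 ± 0.23, adjusted p = 0.248). IL4 went the other way for this gene: Tspan4 had 106, 112 and 109 CPM with IL4, against 279.7, 189.6 and 282 CPM unstimulated. Every IL4 library was below every unstimulated one, and Tspan4 fell (log2 fold change -1.20 ± 0.19, adjusted p = 0.00106). The nearby genes Cd151 and Tspan4 thus both rose with differentiation and parted with IL4, where Cd151 rose and Tspan4 fell.

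Part of the Tspan4 transcript lies on the opposite strand of another gene. Of its exon bases 13.4% overlap exons of Chid1, and whether the counting used strand is not given in the sources used here. Chid1 had 34.5 ± 2.34 CPM in the precursor libraries, 44.6 ± 5.86 CPM in immature macrophages and 54.0 ± 10.3 CPM in mature macrophages, and did not pass between immature macrophages and precursors (log2 fold change 0.37 ± 0.19, adjusted p = 0.130). Chid1 rose in mature macrophages over precursors (0.64 ± 0.19, adjusted p = 0.0145), where Tspan4 rose too. With IL4 Chid1 averaged 51.8 ± 5.87 CPM, against 39.5 ± 3.68 CPM unstimulated (log2 fold change 0.39, adjusted p = 0.167). The part of Chid1 reads in the Tspan4 values was not tested. Of the Cd151 exon bases 7.04% overlap a non-coding transcript on the other strand.

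**Figure D2:**
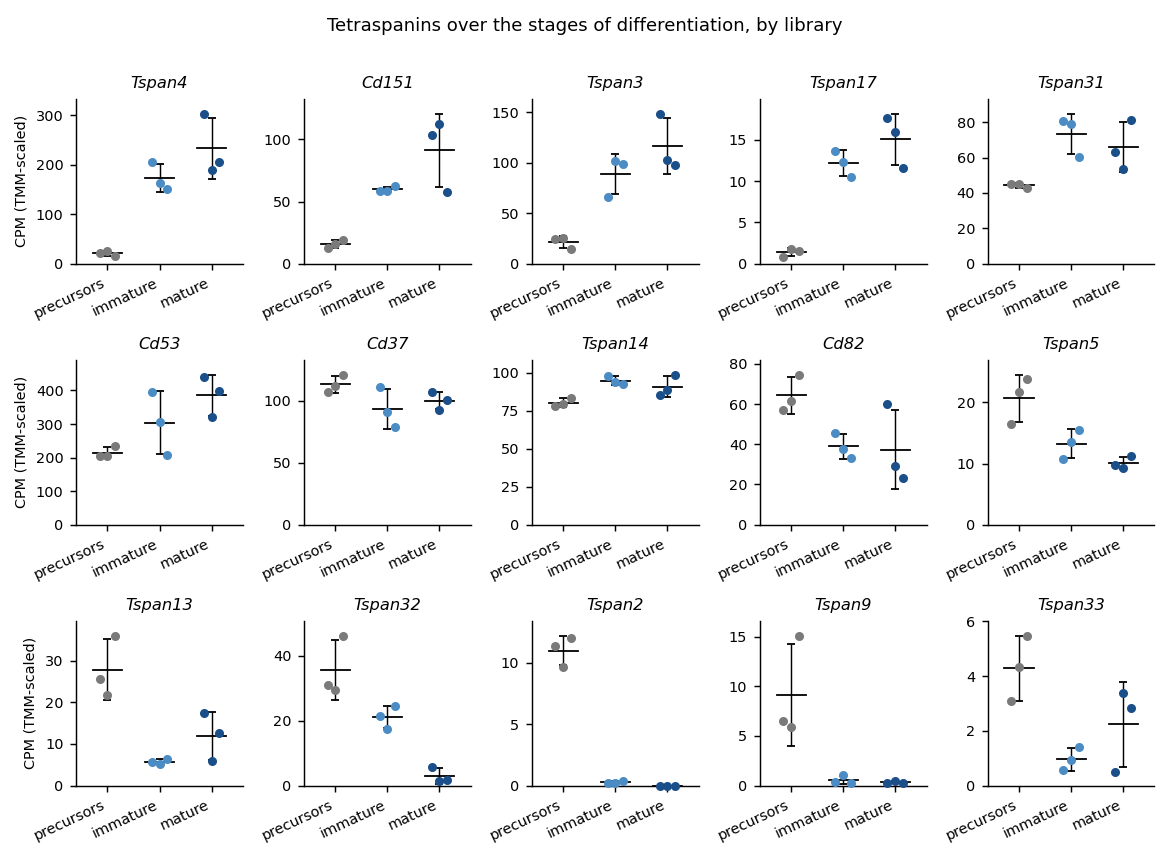
CPM (y axis, from 0, own scale per gene) of the 15 tested tetraspanins in precursors, immature and mature macrophages. Points are the 3 libraries of a group, the long bar is their mean and the error bar 1 SD. Tspan4, Cd151, Tspan3 and Tspan17 have all immature and mature points above the precursor points, Tspan2 and Tspan9 are near 0 outside precursors, and Tspan32 is lowest in mature macrophages.

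The second group is TspanC8, the tetraspanins Tspan5, Tspan10, Tspan14, Tspan15, Tspan17 and Tspan33. They bind ADAM10, a protease that cuts Notch and other surface proteins, and bring it out of the endoplasmic reticulum. Of the 4 tested across the stages, Tspan17 rose, Tspan5 and Tspan33 fell and Tspan14 did not pass between immature macrophages and precursors. None of the 4 passed between mature and immature macrophages. Of the 3 tested with IL4, Tspan5 and Tspan17 rose and Tspan14 did not pass. Over all genes tested, 22.5% rose and 26.6% fell between immature macrophages and precursors, and 14.9% passed between mature and immature macrophages. With IL4 10.5% rose and 10.3% fell.

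Tspan5 showed the largest rise with IL4 among the tested tetraspanins. Its gene (ENSMUSG00000028152, chromosome 3, 138742195 to 138907905, plus strand) had 55.7, 47.7 and 54.3 CPM with IL4, against 7.74, 5.36 and 6.41 CPM unstimulated. The groups stood far apart, and the log2 fold change was 2.98 ± 0.22 (adjusted p = 7.91e-06). Across the stages the direction was the other way. Tspan5 had 16.4, 21.6 and 23.9 CPM in the precursor libraries, 10.8, 13.5 and 15.5 CPM in immature macrophages and 9.80, 9.24 and 11.3 CPM in mature macrophages. All immature and mature libraries were below all precursor libraries. The fall in mature macrophages from precursors was -1.03 ± 0.23 on the log2 scale (adjusted p = 0.00324). That in immature macrophages was smaller (-0.64 ± 0.23, adjusted p = 0.0370) and did not pass in limma on the deposited log2 RPM (adjusted p = 0.0853), with no filter on reads (adjusted p = 0.0572) or without precursor library 2 or 3 or immature library 1 or 2 (adjusted p = 0.0965 to 0.1325).

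Tspan17 (chromosome 13, 54789377 to 54796776, plus strand) was low in precursors, at 0.856, 1.78 and 1.53 CPM. It had 13.6, 12.4 and 10.5 CPM in immature macrophages and 17.6, 15.9 and 11.6 CPM in mature macrophages. Precursor libraries were all far below the others, while immature and mature libraries overlapped. Tspan17 rose by 3.11 ± 0.32 on the log2 scale in immature macrophages over precursors (adjusted p = 3.15e-05), the largest rise of any tested tetraspanin in that comparison. In mature macrophages over precursors the log2 fold change was 3.41 ± 0.32 (adjusted p = 1.19e-05). With IL4 it had 65.1, 65.5 and 53.0 CPM, against 33.3, 26.8 and 41.7 CPM unstimulated. Tspan17 rose with IL4 without overlap of the groups (log2 fold change 0.84 ± 0.21, adjusted p = 0.0145), but not without unstimulated library 2 (0.71, adjusted p = 0.0521), IL4 library 2 (0.80, adjusted p = 0.0611) or both libraries of mouse 1 (0.77, adjusted p = 0.0571).

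Tspan14 (chromosome 14, 40906445 to 40966807, minus strand) had 78.2, 79.3 and 83.7 CPM in the precursor libraries, 98.3, 94.1 and 92.7 CPM in immature macrophages and 85.5, 88.8 and 98.7 CPM in mature macrophages. With IL4 it had 147, 213 and 255 CPM, against 154, 196 and 225 CPM unstimulated. Immature and mature libraries were all above the precursors, but it passed in no comparison, with log2 fold changes of 0.24 in immature macrophages over precursors, 0.18 in mature macrophages over precursors and 0.09 with IL4. The spread within each group of the IL4 table was wide, and the groups overlapped there.

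Tspan33, known from erythroid progenitors, had 3.09, 4.32 and 5.46 CPM in the precursor libraries, 0.552, 0.921 and 1.41 CPM in immature macrophages and 0.486, 3.39 and 2.83 CPM in mature macrophages. Immature libraries were all below the precursors, mature library 1 was low and the other mature libraries lay near the lowest precursor library. Tspan33 fell in immature macrophages (log2 fold change -2.19 ± 0.64, adjusted p = 0.0154), a call lost in limma on log2 RPM (adjusted p = 0.0793) and without immature library 1 or 2 (adjusted p = 0.0557 and 0.0535). Summed over 10 erythroid markers, of which 6 of the 7 tested fell, the level was 1.53 to 4.50 CPM in immature macrophages. It was 317, 153 and 183 CPM in precursor libraries 1, 2 and 3. Library 1, the highest of them for the erythroid markers, was the lowest for Tspan33. The part of erythroid cells in the Tspan33 result was not tested. In the IL4 table Tspan33 had 4 reads with IL4 and 8 reads unstimulated, too few to test. Tspan10, studied in pigment cells, had 3, 3 and 7 reads over all precursor, immature and mature libraries, and Tspan15 had 6 reads in precursors and 0 in both macrophage groups.

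Adam10, the gene of the protease itself, fell to 112 ± 9.51 CPM in immature macrophages, against 202 ± 27.9 CPM in precursors (log2 fold change -0.85 ± 0.25, adjusted p = 0.0152). With IL4 it averaged 228 ± 38.6 CPM, against 199 ± 14.2 CPM unstimulated, which did not pass (0.20, adjusted p = 0.511).

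The third group holds the tetraspanins of white blood cells. Cd53, a pan-leukocyte tetraspanin (ENSMUSG00000040747, chromosome 3, 106759921 to 106790149, minus strand), had 204, 205 and 233 CPM in the precursor libraries, 397, 305 and 209 CPM in immature macrophages and 439.8, 319.6 and 397 CPM in mature macrophages. The mature libraries were all above the precursors, and immature library 3 sat among the precursors. Cd53 rose in mature macrophages over precursors (log2 fold change 0.85 ± 0.24, adjusted p = 0.0113) and did not pass in immature macrophages (0.50 ± 0.24, adjusted p = 0.0991), though it did without immature library 3 (0.77, adjusted p = 0.0161). With IL4 it had 290.0, 198 and 262 CPM, against 222, 109.6 and 136 CPM unstimulated. The groups overlapped, and each mouse number had the higher level with IL4. The change did not pass (0.68 ± 0.26, adjusted p = 0.0915). It passed with the mouse number as a block in the fit (0.72, adjusted p = 0.00163), without unstimulated library 1 (1.02, adjusted p = 0.00847) and without both libraries of mouse 1 (0.90, adjusted p = 0.0120).

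Cd37, best known from B cells but also present on myeloid cells (chromosome 7, 45233632 to 45239115, minus strand), had 107, 112 and 121 CPM in the precursor libraries, 111, 90.9 and 79.1 CPM in immature macrophages and 107, 92.9 and 100.5 CPM in mature macrophages. Mature libraries lay just below the precursors without overlap, and no stage comparison passed, with log2 fold changes of -0.28, 0.10 and -0.18 for immature over precursors, mature over immature and mature over precursors. The B cell markers fell over the same stages to sums of 109.9 to 196 CPM in immature macrophages, against 329 to 467 CPM in the precursor libraries, and their part in the Cd37 level was not tested. With IL4 Cd37 had 141, 194 and 189.6 CPM, against 244, 245 and 279.7 CPM unstimulated. The groups did not overlap and Cd37 fell (log2 fold change -0.55 ± 0.18, adjusted p = 0.0498), at the edge of the threshold. Leaving out any of the 6 libraries ended the call (adjusted p = 0.0715 to 0.162), as did no filter on reads (0.0514) and leaving out both libraries of mouse 1 (0.131).

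Cd82, known as a suppressor of metastasis (chromosome 2, 93419111 to 93463140, minus strand), had 57.0, 61.5 and 74.5 CPM in the precursor libraries, 45.7, 37.9 and 33.4 CPM in immature macrophages and 60.0, 29.0 and 23.1 CPM in mature macrophages. Immature libraries were all below the precursors. Mature library 1 lay within the precursor range and the other mature libraries well below it. Neither macrophage stage passed against precursors (log2 fold change -0.72 ± 0.31, adjusted p = 0.0791 for immature, and -0.78 ± 0.31, adjusted p = 0.0553 for mature). Without mature library 1 both did (-0.71, adjusted p = 0.00982 and -1.30, adjusted p = 0.000970), and the mature value also passed with the mouse number as a block (-0.89, adjusted p = 0.0335), in DESeq2 (adjusted p = 0.0351), with no filter (0.0442) and in limma on log2 RPM (0.0324). With IL4 Cd82 had 7.23, 7.28 and 8.89 CPM, against 19.2, 12.8 and 19.0 CPM unstimulated. Every IL4 library was lower, and Cd82 fell (log2 fold change -1.14 ± 0.24, adjusted p = 0.00623).

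Tspan32, a tetraspanin of blood cells that in platelets acts with the fibrinogen receptor, was with Tspan2 one of the 2 members that fell in the step to mature macrophages. Tspan32 (chromosome 7, 143005046 to 143019644, plus strand) had 31.1, 29.6 and 46.1 CPM in the precursor libraries, 21.3, 17.5 and 24.4 CPM in immature macrophages and 5.83, 1.40 and 1.61 CPM in mature macrophages. The 3 stages did not overlap at any step. The step to mature macrophages from immature ones passed (log2 fold change -2.81 ± 0.47, adjusted p = 0.00299), as did mature macrophages against precursors (-3.56 ± 0.47, adjusted p = 0.000123). Immature macrophages against precursors did not pass (-0.76 ± 0.42, adjusted p = 0.154), but did without mature library 1 (-0.75, adjusted p = 0.0188). Markers of several other cell types also fell between immature and mature macrophages. Of 12 neutrophil markers 11 fell, to sums of 0.729 to 5.13 CPM in mature macrophages, against 231 to 285 CPM in immature ones. The neutrophil sums had been 13779 to 20669.7 CPM in precursors. Of 10 megakaryocyte markers 4 fell. Of 8 dendritic cell markers 6 fell and 1 rose, and of 6 progenitor markers 3 fell and 1 rose. Over all genes tested 7.38% fell. The part of these cell types in the Tspan32 result was not tested. Of the Tspan32 exon bases 4.35% overlap its antisense gene Tspan32os. In the IL4 table Tspan32 had 5.62, 10.9 and 9.88 CPM with IL4, against 3.99, 9.48 and 6.41 CPM unstimulated, and did not pass (0.45, adjusted p = 0.459).

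Promoter sequence is shown for the members holding the short motif GAGGAAGT, and for Tspan5 as the member with the largest rise with IL4. A paired motif was searched too. The windows run from 250 bases before to 50 after an annotated start (RefSeq, GRCm38.p6) and were found for 23 of the 24 genes, with several starts for some, 33 windows in all. No window was at hand for Tspan18. Both motifs were chosen after the values were seen and searched on both strands. GAGGAAGT, the core bound by the myeloid factor PU.1, was in 3.20% of all 32851 windows and in 1 window each of Cd53, Cd37, Cd82 and Tspan14. The paired site bound by STAT6, which IL4 activates, was searched as TTC and GAA with 4 bases between. It was in 6.95% of all windows and in those of Cd53 and Tspan3, of which that of Tspan3 is not shown. With IL4 Tspan3 did not pass, and Cd53 passed only in some of the fits described above. The motifs do not overlap in these windows. None of the windows of Tspan5, Cd151, Tspan17, Tspan13 or Tspan4 held either. A match is a description of these letters and shows no binding. Capitals mark GAGGAAGT or its reverse complement and, further from the start in Cd53, also a match of the STAT6 pair. The windows are written 5′ to 3′ on the gene's strand. They lie at chr3:106790100-106790399 (Cd53, minus strand), chr7:45238790-45239089 (Cd37, minus), chr2:93461802-93462101 (Cd82, minus), chr14:40948160-40948459 (Tspan14, minus) and chr3:138741958-138742257 (Tspan5, plus, no match, 73.3% G or C).
Cd53: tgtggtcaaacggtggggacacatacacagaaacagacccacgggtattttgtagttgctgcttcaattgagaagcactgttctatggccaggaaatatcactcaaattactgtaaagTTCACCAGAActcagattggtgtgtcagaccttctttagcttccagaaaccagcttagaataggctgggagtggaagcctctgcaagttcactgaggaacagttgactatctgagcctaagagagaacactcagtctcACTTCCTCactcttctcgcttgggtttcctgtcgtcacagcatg
Cd37: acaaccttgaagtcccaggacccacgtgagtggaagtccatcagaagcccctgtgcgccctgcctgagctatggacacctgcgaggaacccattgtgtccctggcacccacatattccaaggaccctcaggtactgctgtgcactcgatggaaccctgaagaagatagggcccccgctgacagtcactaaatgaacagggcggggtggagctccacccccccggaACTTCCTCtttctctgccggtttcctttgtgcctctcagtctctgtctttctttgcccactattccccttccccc
Cd82: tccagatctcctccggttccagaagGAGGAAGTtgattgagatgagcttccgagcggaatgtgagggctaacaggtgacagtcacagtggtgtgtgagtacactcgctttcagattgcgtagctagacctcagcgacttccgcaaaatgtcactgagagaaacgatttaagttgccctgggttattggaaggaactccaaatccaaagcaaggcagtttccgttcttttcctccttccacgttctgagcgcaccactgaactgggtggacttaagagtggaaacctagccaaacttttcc
Tspan14: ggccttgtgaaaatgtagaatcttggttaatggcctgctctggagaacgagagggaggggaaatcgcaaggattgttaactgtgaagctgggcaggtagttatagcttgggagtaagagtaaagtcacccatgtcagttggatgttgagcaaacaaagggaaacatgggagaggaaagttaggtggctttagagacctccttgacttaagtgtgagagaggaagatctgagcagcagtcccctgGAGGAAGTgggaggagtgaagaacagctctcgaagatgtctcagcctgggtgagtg
Tspan5: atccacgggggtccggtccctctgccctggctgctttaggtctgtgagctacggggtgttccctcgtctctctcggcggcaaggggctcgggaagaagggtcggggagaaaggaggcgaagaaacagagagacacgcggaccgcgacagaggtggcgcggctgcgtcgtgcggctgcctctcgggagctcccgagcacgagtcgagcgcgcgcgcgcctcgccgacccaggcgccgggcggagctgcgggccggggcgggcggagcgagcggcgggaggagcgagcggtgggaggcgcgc

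The fourth group holds members with other or less settled roles. Tspan3, described as a partner of claudin-11 in myelinating cells (chromosome 9, 56131725 to 56165477, minus strand), had 24.04, 25.8 and 15.0 CPM in the precursor libraries, 66.0, 102 and 98.5 CPM in immature macrophages and 148, 103 and 97.5 CPM in mature macrophages. All macrophage libraries were above the precursors. Tspan3 rose in immature macrophages over precursors (log2 fold change 2.03 ± 0.27, adjusted p = 0.000158) and in mature macrophages over precursors (2.42 ± 0.27, adjusted p = 3.92e-05). With IL4 it had 127, 127 and 164 CPM, against 127, 154 and 140.1 CPM unstimulated, with overlapping groups and a log2 fold change of -0.01 ± 0.17 that did not pass (adjusted p = 0.974).

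Tspan31, found in a region amplified in human sarcomas (chromosome 10, 127067280 to 127070264, minus strand), had 45.1, 44.9 and 42.8 CPM in the precursor libraries, 80.6, 79.1 and 60.2 CPM in immature macrophages and 63.1, 53.5 and 81.4 CPM in mature macrophages. Macrophage libraries were all above precursor libraries. It rose in immature macrophages over precursors (log2 fold change 0.73 ± 0.19, adjusted p = 0.01004) and in mature macrophages over precursors (0.58 ± 0.19, adjusted p = 0.0266). The second call was lost with the mouse number as a block (adjusted p = 0.0537) and without any 1 precursor library or mature library 3 (adjusted p = 0.0624 to 0.0752). With IL4 Tspan31 had 303, 273 and 365 CPM, against 260.5, 211 and 270.3 CPM unstimulated, and did not pass although the groups did not overlap (0.34 ± 0.18, adjusted p = 0.231). Of its exon bases 29.2% overlap Cdk4 on the opposite strand, so without strand some of these reads could be of Cdk4. Cdk4 averaged 137 ± 16.1 CPM in the precursor libraries, 132 ± 20.4 CPM in immature macrophages and 112 ± 24.8 CPM in mature macrophages, and passed in no comparison.

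Tspan13, which binds a subunit of neuronal calcium channels (chromosome 12, 36014557 to 36042500, minus strand), had 25.6, 21.8 and 36.0 CPM in the precursor libraries, 5.75, 5.22 and 6.26 CPM in immature macrophages and 17.3, 5.97 and 12.6 CPM in mature macrophages. The immature libraries were tight and low, and the mature ones spread between them and the precursors. Tspan13 fell in immature macrophages from precursors (log2 fold change -2.27 ± 0.36, adjusted p = 0.000526) and in mature macrophages (-1.21 ± 0.34, adjusted p = 0.0126), the second not without precursor library 3 (-0.98, adjusted p = 0.0562). Mature and immature macrophages did not pass (1.07 ± 0.36, adjusted p = 0.0703), but did without mature library 2 (1.38, adjusted p = 0.0139) and in DESeq2 (adjusted p = 0.0360). With IL4 Tspan13 had 9.64, 14.9 and 12.8 CPM, against 2.58, 6.18 and 7.15 CPM unstimulated. Tspan13 rose with no overlap of the groups (1.25 ± 0.35, adjusted p = 0.0280), a call lost without unstimulated library 1 or 2 or IL4 library 2 or 3 (adjusted p = 0.0643 to 0.100).

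**Figure D3:**
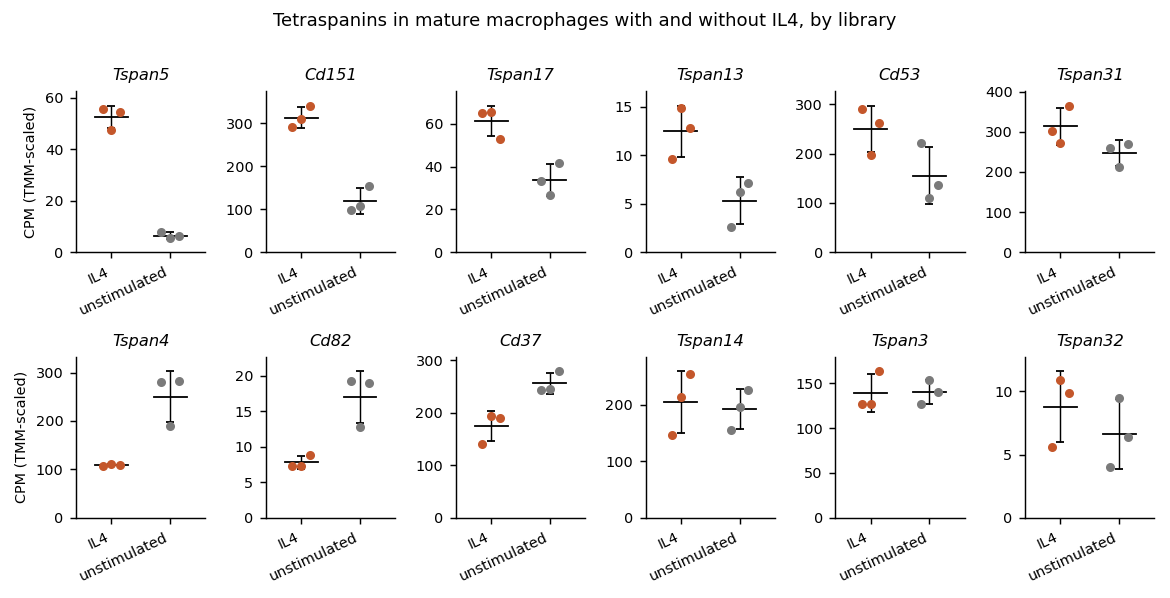
CPM (y axis, from 0, own scale per gene) of the 12 tetraspanins tested in mature macrophages with IL4 (left in each panel) and unstimulated (right). Points are the 3 libraries of a group, the long bar is their mean and the error bar 1 SD. Tspan5, Cd151, Tspan17 and Tspan13 have every IL4 point above every unstimulated one, and Tspan4, Cd82 and Cd37 have every IL4 point below.

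A pair of members was found almost only in precursors. Tspan2, known from oligodendrocytes and neurons (chromosome 3, 102734529 to 102801513, plus strand), had 11.3, 9.65 and 12.0 CPM in the precursor libraries, 0.236, 0.205 and 0.383 CPM in immature macrophages and 0 in each mature library. It fell in immature macrophages (log2 fold change -5.31 ± 0.42, adjusted p = 2.03e-05). The immature libraries held 8 reads together and the mature ones 0, and this step passed as well (adjusted p = 0.0162). Taking 3 reads over the group as the floor, Tspan2 in mature macrophages was at least 2.99-fold lower than in immature macrophages. Against precursors the bound was at least 121-fold lower (adjusted p = 4.68e-06). These bounds cover counting error only. Of the Tspan2 exon bases 1.85% overlap its antisense gene Tspan2os.

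Tspan9, a tetraspanin of platelets that lies near the collagen receptor GPVI (chromosome 6, 127961396 to 128143594, minus strand), had 6.52, 5.90 and 15.1 CPM in the precursor libraries, 0.394, 1.02 and 0.256 CPM in immature macrophages and 0.243, 0.468 and 0.306 CPM in mature macrophages. It fell in immature macrophages from precursors (log2 fold change -4.00 ± 0.57, adjusted p = 0.000257) and in mature macrophages (-4.76 ± 0.60, adjusted p = 8.86e-05). Precursor library 3, the highest for Tspan9, also had the highest sum over the megakaryocyte and platelet markers, at 826 CPM. Precursor libraries 1 and 2 had 357 and 462 CPM. The same library had the highest precursor sums of the neutrophil, B cell, progenitor, dendritic cell, T and NK cell, and mast cell, basophil and eosinophil markers. The erythroid, stromal and macrophage sums were highest in other precursor libraries. The part of any of these cell types in the Tspan9 result was not tested. In the IL4 table Tspan2 and Tspan9 were too low to test.

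The 9 tetraspanins not tested across the stages were near or at 0. Tspan18, which regulates calcium entry in endothelial cells, had 23 reads in precursors and 0 in both macrophage groups, and so was at least 4.43-fold lower in immature and at least 4.97-fold lower in mature macrophages. Tspan12, a co-receptor of Norrin signalling, had 12, 0 and 0 reads in precursors, immature and mature macrophages (at least 2.31-fold and 2.59-fold lower in immature and mature macrophages than in precursors). Tspan6, which takes part in sorting into vesicles, had 27, 1 and 0 reads, and mature macrophages were at least 5.83-fold lower. Tspan8, known from carcinoma cells, had 3, 5 and 0 reads. Tspan1, Tspan7 and Tspan11 had 0 reads in all 9 libraries. With or without IL4, 10 of the 24 genes had 0 reads in all 6 libraries, and Tspan7 had 1 read.

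Levels can be compared between genes only per length. Per kilobase of exon, Cd53 led in precursors with 123 ± 9.5 CPM per kilobase (SD, n = 3), ahead of Cd37 with 32.2 ± 2.0 and Tspan14 with 30.3 ± 1.1, which lay within their spread of each other. Cd82 with 21.4 ± 3.0 and Tspan31 with 20.2 ± 0.58 came next, and Tspan4 followed after Tspan13 with 9.62 ± 2.2 CPM per kilobase. In immature macrophages Cd53 (174 ± 54) and Tspan4 (79.4 ± 13) stood above the others, and Tspan14 (35.9 ± 1.1) and Tspan31 (33.4 ± 5.2) did not differ beyond their spread. In mature macrophages the order began with Cd53 (221 ± 35) and Tspan4 (107 ± 28), and Tspan14, Cd151, Tspan31, Cd37 and Tspan3 followed within 34.3 to 27.2 CPM per kilobase, neighbours in that order lying within their spread.

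The IL4 table gave another order, on its own scale and scaled apart from the differentiation table. With IL4, Cd53 (144 ± 27) and Tspan31 (143 ± 21) were level, Cd151 came next with 114 ± 9.2, and Tspan4 followed after Tspan14 with 50.1 ± 1.2 CPM per kilobase. Unstimulated cells had Tspan4 (115 ± 24), Tspan31 (113 ± 14) and Cd53 (89.4 ± 34) in front, within their spread of each other, and Cd151 came after Cd37 and Tspan14 with 43.7 ± 11. Tspan5 was above Tspan13, Cd82 and Tspan32 with IL4 (7.11 ± 0.58) and the lowest of the 12 tested unstimulated (0.880 ± 0.16), within its spread of Tspan32 (1.06 ± 0.44), so on this scale it was among the lower members in both groups. Dividing by the longest transcript in place of all exons moves some places: with IL4 Tspan31 (201 CPM per kilobase) and Cd151 (168) then stand ahead of Cd53 (144), and in mature macrophages Tspan14 (36.7) follows Tspan3, Cd151, Tspan31 and Cd37.

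**Figure D4:**
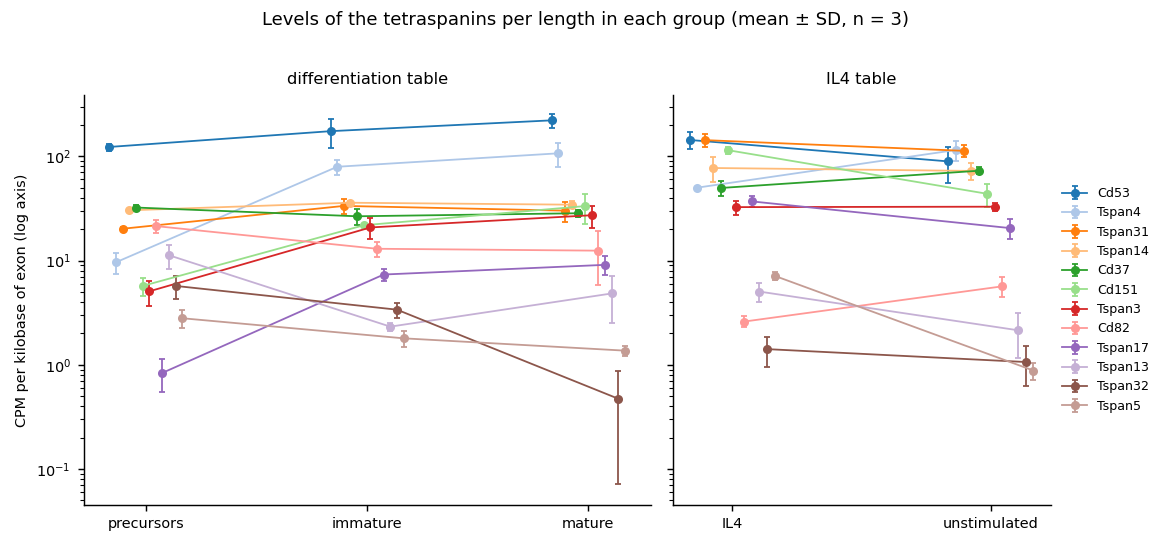
CPM per kilobase of exon (y axis, log scale) of 12 tetraspanins in each group of the differentiation table (left) and the IL4 table (right), as mean with 1 SD over 3 libraries; lines join the same gene and points are shifted sideways for legibility. Cd53 is highest in all 3 stages, Tspan4 is the second highest in immature and mature macrophages, and Tspan5 is at 7.11 with IL4 and 0.880 unstimulated.

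Proteins that tetraspanins bind were counted from a separate list. Of 15 tested across the stages, 6 rose, 7 fell and 2 did not pass between immature macrophages and precursors, beside 22.5% of all genes rising and 26.6% falling. The list's median log2 fold change was -0.64, against -0.07 over all genes. Sdcbp, the adaptor syntenin that binds CD63, rose to 1231 ± 182 CPM in immature macrophages, against 228 ± 12.9 CPM in precursors (log2 fold change 2.43 ± 0.20, adjusted p = 8.52e-06). Kit, the stem cell factor receptor, fell to 0.623 ± 0.456 CPM, against 46.7 ± 7.76 CPM in precursors (-6.10 ± 0.45, adjusted p = 1.53e-05), and is also one of the progenitor markers that fell. Between mature and immature macrophages 2 rose, 1 fell and 12 did not pass, beside 7.52% of all genes rising and 7.38% falling. Between mature macrophages and precursors 6 rose, 6 fell and 3 did not pass, beside 25.8% rising and 28.5% falling.

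With IL4, 5 of 13 tested binding proteins rose and 4 fell, beside 10.5% and 10.3% of all genes. The list's median log2 fold change was 0.11, against 0.01 over all genes. Igsf3, an immunoglobulin-superfamily protein, had 28.4 ± 4.96 CPM with IL4 and 1.41 ± 0.582 CPM unstimulated (log2 fold change 4.39 ± 0.31, adjusted p = 7.00e-06). Clec7a, which encodes the fungal receptor dectin-1, a partner of CD37, had 1687 ± 349.7 CPM with IL4 and 150.4 ± 61.4 CPM unstimulated (3.49 ± 0.29, adjusted p = 1.85e-05). Ptgfrn, a partner of CD9 and CD81, had 10.7 ± 0.509 CPM with IL4 and 1.34 ± 0.806 CPM unstimulated (2.84 ± 0.36, adjusted p = 0.000230). Itgax, the 1 dendritic cell marker tested there, was at 3107 CPM with IL4 and 34.2 CPM unstimulated. The macrophage markers summed to 6397 to 7226 CPM with IL4 and 7428 to 10199 CPM unstimulated, and their part in the tetraspanin results was not tested.

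Beside the set, the tetraspanins Cd9, Cd63 and Cd81 were tested, and also Rom1. Between immature macrophages and precursors 3 of these 4 rose and none fell, beside 22.5% of all genes rising. In the step to mature macrophages 2 of them rose, beside 7.52% of all genes tested. Cd81 had 36.8 ± 7.41 CPM in the precursor libraries, 150.3 ± 24.2 CPM in immature macrophages and 629.8 ± 256 CPM in mature macrophages (mature over immature 2.07 ± 0.31, adjusted p = 0.00168). Cd9 averaged 2750.1 ± 261 CPM with IL4, against 813 ± 79.7 CPM unstimulated (1.76 ± 0.17, adjusted p = 5.00e-05), and Cd63 2834 ± 355 CPM, against 1531 ± 269.9 CPM (0.89 ± 0.19, adjusted p = 0.00660).

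The authors' deposited table of genes under an FDR of 0.05 was set beside these calls. For immature macrophages and precursors it lists 14 of the 24 genes, 9 of them among the 10 called here. The authors' deposited table adds Tspan18 (FDR 0.00150), Tspan6 (0.00303), Cd82 (0.0147), Tspan32 (0.0252) and Tspan12 (0.0454), and does not list Tspan5. For mature macrophages and precursors it lists 13 genes, 10 of them among the 11 called here. For mature and immature macrophages the authors' deposited table lists Tspan32 only (FDR 9.94e-06), and with IL4 it lists 6 of the 7 called here, without Cd37.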

How the data were processed

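Raw counts of reads per gene were deposited by the authors as 2 tables, 1 for the 9 differentiation libraries and 1 for the 6 libraries with or without IL4. The first also holds the authors' mean count per group (a signal column), not used here. They also deposited log2 RPM for the same genes and lists of genes with a p-value adjusted as FDR under 0.05. Libraries were made from 1 µg of column-purified, DNase-treated total RNA, per the labels. Per the submitters' processing notes, HISAT2 2.0.5 and edgeR (no version) were used, and the builds GRCm38.p6 and GRCm39.p6 are named. How reads were counted, and whether by strand, is not given in the sources used here. Members' places are those of GENCODE M21 (GRCm38) in the differentiation table. Coordinates of some differ in the IL4 table.

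The present fits used edgeR 4.0.16 under R 4.3.3. Genes without an identifier (0.338% and 0.0148% of reads in the differentiation and IL4 tables) were kept. The filter was filterByExpr with a minimum count of 10, scaling was TMM, and glmQLFit and glmQLFTest were run on all genes left, the 9 and the 6 libraries in separate fits. Benjamini-Hochberg adjustment ran over all genes tested. The fit was also run on counts simulated from its own means and spread. Such counts cannot show whether the real libraries follow the model. Lower bounds take 3 reads over a group at 0 reads and reflect counting error alone. Exon lengths, overlaps and promoter windows come from GENCODE M21 and RefSeq.

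Members, lists and tests were chosen with earlier results of these data known. A member with a mean of at least 10 CPM in a group was given with every library of that table, as was one called and changed at least 4-fold. Of each list up to 3 called genes of the lowest p and at least 5 CPM were named. Alternatives were RLE scaling, DESeq2 1.42.0, no filter, limma 3.58.1 on log2 RPM, the mouse number as a replicate block and leaving out each library. Leaving out mouse 1 with IL4 was added after seeing the data. The titles number mice 1 to 3 in each group, so numbers pair libraries by label. In the IL4 table the column headers carry a different number for each library. Whether equal mouse numbers are the same animal is not stated. In the IL4 table deviations from the group mean correlated by 0.591, 0.175 and 0.413 between libraries of the same mouse number. Libraries of different mouse numbers there correlated by -0.487 to 0.247, so the ranges overlapped. In the differentiation table the correlations of same-numbered libraries ran from -0.129 to 0.165, and those of different numbers from -0.128 to 0.139.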

Additional observations from a re-analysis of the deposited data

How the results depend on the processing

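Of the counts of calls, most stayed within 1.5 times under the other settings. DESeq2 gave 1 tetraspanin higher in mature than in immature macrophages (Tspan13). No filter on reads gave 8 tetraspanins lower in mature macrophages than in precursors, and limma on log2 RPM gave 3 lower in immature macrophages than in precursors. With the replicate block 2883 genes passed with IL4, against 1855 without it. Beside the calls of Cd53, Cd82 and Tspan31 given above, the pairing by mouse number changed no call of a member. RLE scaling changed no call of a member.

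Leaving out each library in turn gave 3 to 7 tetraspanins lower in immature macrophages than in precursors (3 without immature library 1 or 2), 0 to 1 higher in mature than in immature macrophages (Tspan33 without mature library 1, Tspan13 without mature library 2, Cd151 without mature library 3) and 2 to 4 higher with IL4 (2 without unstimulated library 2 or IL4 library 2). Over all genes, 1007 to 2702 passed between mature and immature macrophages, the fewest without immature library 2 and 1262 without immature library 1. The sign turned only for small changes that did not pass. Mature over immature, Cd82 ranged from -0.58 (without mature library 1) to 0.20 (without mature library 3) and was also above 0 without immature library 1 or mature library 2, and Cd37 ranged from -0.0535 (without immature library 3) to 0.24. With IL4, Tspan14 ranged from -0.0946 (without IL4 library 3) to 0.29 and was also below 0 without unstimulated library 1. Tspan3 ranged from -0.15 to 0.0571 (highest without unstimulated library 2) and was also above 0 without IL4 library 1 or 2. The cause was not tested.

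The IL4 libraries held fewer reads than those of differentiation, and tetraspanins of few reads were not tested there. Limma on log2 RPM moved the median of all genes to 0.10 in immature macrophages over precursors, against -0.07. Per length, using the longest transcript moved 9 of the 15 levels compared, those in front in each group, by more than 1 SD over the libraries.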
